A study of Mus musculus with 6 samples.

Results

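The V genes with a double name, TRAV followed by DV, can serve either a TCRα or a TCRδ chain. They were followed here in P2+CD4+ T cells, which bind the peptide P2 of the retinal protein IRBP. The members were all TRA contigs listed as productive whose V gene name contained -DV, in 3 TCR libraries. They numbered 102 of 1123 productive TRA contigs, lay in 101 of the 999 cell barcodes with a productive TRA, and made up 83 distinct rearrangements of 8 DV genes. A rearrangement here is a V gene joined to a given TRAJ gene with given CDR3 bases, counted once in a library. TRAV4-4-DV10 with 41 contigs and TRAV6-7-DV9 with 33 contigs held most of them, and are described in most detail.

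All cells came from eye-draining LN of Aire GW/+ Lyn-/- mice at 9 wk of age, which carry the Aire GW allele over a normal allele and lack Lyn, and some of which develop uveitis spontaneously. Uveitis dataset 1 and uveitis dataset 2 were pools of 7 and 8 mice with uveitis, in an order that the sources do not give, and the third library was a pool of 16 mice without uveitis. The cells were enriched with P2/I-Ab tetramer and sorted as CD4+ T cells, and all groups shared the genotype, so that no wild-type library was compared. Each pool was treated as 1 sample, and with 1 library without uveitis no test between the conditions was possible.

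The TCRδ genes lie inside the TCRα locus, between the V genes and the TRAJ genes. Joining a V gene to a TRAJ gene cuts the intervening TCRδ genes out of the chromosome, so the same locus gives either a TCRα or a TCRδ chain. Early joins tend to use V genes near the TRAJ cluster and TRAJ genes at its near end, and a later join in the same cell replaces an earlier one by using a V gene farther upstream and a TRAJ gene farther downstream.

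A productive TRA and TRB were both present in 176 cells of dataset 1, 324 of dataset 2 and 470 of the third library. The contigs of these libraries held 5302, 7439 and 21408 UMIs (unique molecular identifiers, 1 per captured RNA molecule). A productive TRA contig had a median of 5, 4 and 7 UMIs. In these paired cells the TRA with the most UMIs, or with the most reads where UMIs were equal, stood for the cell as its main TRA, and cells that shared the CDR3 bases, V gene and J gene of each chain made up 1 clonotype. Dataset 2 and the dataset without uveitis shared 1 cell barcode, which carried TRAV6-7-DV9 as a second TRA in dataset 2 and other chains without uveitis, and no other barcode was shared. Dataset 1 also held 11 immunoglobulin contigs, and the other libraries held 0. The 95% intervals in parentheses are exact (Clopper-Pearson) for shares and order-statistic intervals for medians, and cover counting error only.

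In the mouse genome (GRCm38, GENCODE annotation), 10 of 128 TRAV genes carry a DV name, all on the plus strand of chromosome 14. TRAV4-4-DV10 lies at chr14:53683647-53684177 and TRAV6-7-DV9 at chr14:53709902-53710419, 536 and 510 kb upstream of TRAC, the constant gene of the TCRα chain. TRAV21-DV12 lies at chr14:53875984-53876752, 344 kb upstream of TRAC, with only 2 annotated TRAV genes after it. The 5 other DV genes seen were TRAV13-4-DV7 at chr14:53757356-53757921, TRAV15-1-DV6-1 at chr14:53559632-53560247, TRAV14D-3-DV8 at chr14:53078452-53079045, TRAV16D-DV11 at chr14:53047287-53047821 and TRAV15D-1-DV6D-1 at chr14:52863299-52863936. Each V gene encodes the first bases of the CDR3 from the conserved cysteine codon on, and these germline ends, read from GENCODE, were the starting point for describing each junction:
TRAV4-4-DV10 germline: tgtgctgctgagg
TRAV6-7-DV9 germline: tgtgctctgagtga
TRAV21-DV12 germline: tgtatcctgagagtag
TRAV15-1-DV6-1 germline: tgtgctctctgggagctgg

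The junctions that the results turn on were those of the repeated TRAV4-4-DV10 and TRAV6-7-DV9 chains and of TRAV21-DV12. In the CDR3α sequences below, capitals mark bases that match neither the germline V end, read from the start, nor the TRAJ gene, read from the end.
TRAV4-4-DV10/TRAJ43, dataset 2: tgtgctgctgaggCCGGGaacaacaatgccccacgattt
TRAV4-4-DV10/TRAJ50, dataset 2: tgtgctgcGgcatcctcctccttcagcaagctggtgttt
TRAV4-4-DV10/TRAJ50, without uveitis: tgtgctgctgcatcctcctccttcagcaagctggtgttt
TRAV6-7-DV9/TRAJ47, without uveitis: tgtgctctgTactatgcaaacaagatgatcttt
TRAV21-DV12/TRAJ57, without uveitis: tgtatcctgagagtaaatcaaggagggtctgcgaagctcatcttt
TRAV21-DV12/TRAJ57, without uveitis: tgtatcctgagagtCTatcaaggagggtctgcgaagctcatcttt
TRAV21-DV12/TRAJ58, dataset 2: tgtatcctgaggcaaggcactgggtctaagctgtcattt
TRAV21-DV12/TRAJ58, without uveitis: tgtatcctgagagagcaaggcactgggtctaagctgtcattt

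DV genes were used in 11 of 176 paired cells of dataset 1, which is 6.25% (3.16 to 10.9%). In dataset 2 they were used in 19 of 324 cells, or 5.86% (3.57 to 9.01%), and without uveitis in 48 of 470 cells, or 10.2% (7.63 to 13.3%). Both uveitis pools averaged 6.06% ± 0.273 (SD, n = 2) and lay 0.386 percentage points apart. Their differences from the dataset without uveitis were -3.96 and -4.35 points, but the intervals of the 3 libraries overlapped. These shares depended on how V genes were named. With near-identical copies counted together with the DV genes, 14.2%, 9.26% and 16.4% of cells were counted, and dataset 1 was then closer to the dataset without uveitis than to dataset 2. Counting each clonotype once, 11 of 138 clonotypes of dataset 1 (7.97%, 4.05 to 13.8%), 12 of 142 of dataset 2 (8.45%, 4.44 to 14.3%) and 46 of 411 without uveitis (11.2%, 8.31 to 14.6%) carried a DV gene. On this count the differences from the dataset without uveitis narrowed to -3.22 and -2.74 points.

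**Figure D1:**
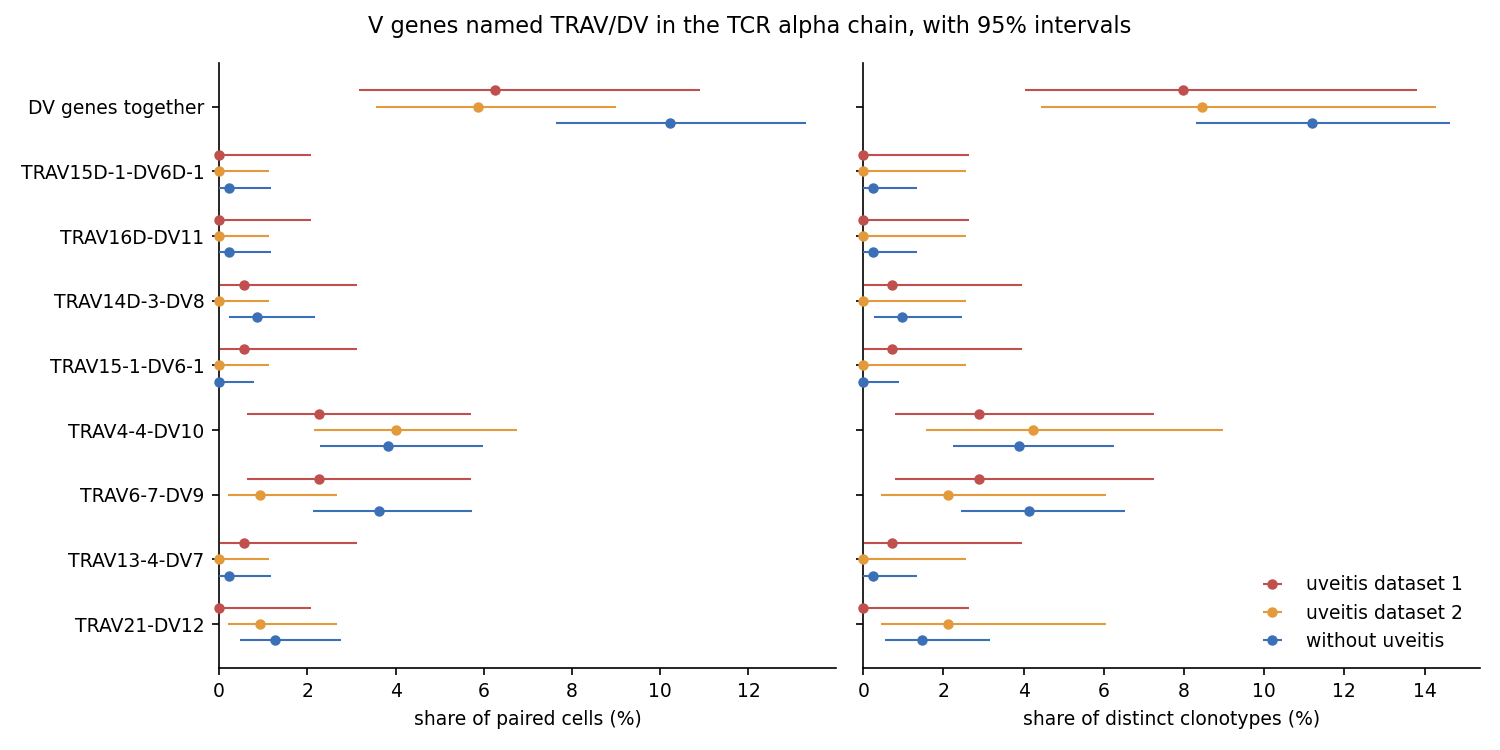
Share of paired cells (left, %) and of distinct clonotypes (right, %) that use each DV gene, by library, with 95% intervals as lines. Genes run from the 5′ end of the locus (top) to the 3′ end, below the row of all DV genes, and the highest points are those of all DV genes together without uveitis, at 10.2% of cells and 11.2% of clonotypes.

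TRAV4-4-DV10 was found in 4 paired cells of dataset 1, 13 of dataset 2 and 18 without uveitis. These were 2.27% (0.623 to 5.72%), 4.01% (2.15 to 6.76%) and 3.83% (2.29 to 5.99%) of cells. They came from 4, 6 and 16 distinct clonotypes, or 2.90%, 4.23% and 3.89% of clonotypes, so that dataset 2 was highest and dataset 1 lowest on both counts, with intervals that overlapped widely. The other TRAV genes with the most similar shares of clonotypes over the 3 libraries were TRAV12-2, TRAV6-6 and TRAV4N-4, with absolute differences that summed to 1.70, 2.38 and 2.43 percentage points. TRAV4N-4 is a near-identical copy of TRAV4-4-DV10 with the same germline CDR3 bases.

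TRAV6-7-DV9 was found in 4, 3 and 17 paired cells of the same libraries, which were 2.27% (0.623 to 5.72%), 0.926% (0.191 to 2.68%) and 3.62% (2.12 to 5.73%). It was lowest in dataset 2 and highest without uveitis, where its 17 clonotypes, 4.14% (2.43 to 6.54%), shared the first rank among 79 V genes with the V names taken as listed. As described with the junctions below, the name is uncertain for some of these chains. In datasets 1 and 2 it had 4 clonotypes (2.90%) and 3 clonotypes (2.11%). TRAV6-6, TRAV13-1 and TRAV5-4 were most like it, with summed differences of 1.43, 1.92 and 1.95 points.

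The remaining DV genes were rare. TRAV21-DV12 was the TRA of 0, 3 and 6 paired cells, where 0 of 176 cells allows a share of up to 2.07%, and 3 and 6 cells were 0.926% (0.191 to 2.68%) and 1.28% (0.470 to 2.76%). TRAV14D-3-DV8 was that of 1, 0 and 4 cells, and its contig with 71 UMIs, joined to TRAJ21 without uveitis, was the most deeply covered of all DV contigs. TRAV13-4-DV7 was found in 1, 0 and 1 cells, TRAV15-1-DV6-1 in 1, 0 and 0 cells, and TRAV15D-1-DV6D-1 and TRAV16D-DV11 each in 0, 0 and 1 cells. All 8 DV genes had a productive contig without uveitis, against 6 in dataset 1 and 4 in dataset 2, which held fewer cells.

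TRAJ partners differed between the DV genes. TRAJ genes are numbered against the direction of the locus, so that a high number lies at the 5′ end of the cluster, nearest to the V genes. TRAV21-DV12, the DV gene nearest to them, was joined to TRAJ57 in 6 and to TRAJ58 in 3 of 11 distinct rearrangements, which is 81.8% (48.2 to 97.7%) for both together. These were 3 of 4 rearrangements in dataset 2 and 6 of 7 without uveitis, and the 2 exceptions used TRAJ34 and TRAJ44. Among the other TRAV genes without a DV name, TRAJ57 or TRAJ58 was used by 11 of 688 rearrangements (1.60%, 0.801 to 2.84%), with a library range of 0.752% to 3.10%. Of all 21 rearrangements with TRAJ57 or TRAJ58 in these data, 9 were those of TRAV21-DV12, and no other V gene had more than 2.

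TRAV21-DV12 had a median TRAJ number of 57, above the median of each of the 32 other TRAV genes with at least 8 rearrangements, which ranged from 15 to 48. TRAV19, with 2 rearrangements to TRAJ57 or TRAJ58, had fewer than 8 in all and was not among these 32 genes. The junctions printed above show that its rearrangements with these TRAJ genes were not copies of 1 sequence, since the bases kept from the V gene and those added differed. Its 9 paired clonotypes used TRBV5 in 3, TRBV3 in 2 and 4 other TRBV genes once each. Every paired cell with TRAV21-DV12 as its main TRA was the only one of its clonotype.

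TRAV4-4-DV10 was spread more widely, over 19 TRAJ genes in 29 distinct rearrangements, with a median TRAJ number of 43. TRAJ43, TRAJ48 and TRAJ50 were used by 3 each, TRAJ33, TRAJ39, TRAJ49 and TRAJ53 by 2 each, and 12 further TRAJ genes once. TRAJ40 or a higher number was used by 17 of 29 (58.6%, 38.9 to 76.5%), with 3 of 6, 3 of 6 and 11 of 17 in the 3 libraries. Among the other TRAV genes it was 166 of 688 (24.1%, 20.97 to 27.5%). The 2 intervals did not overlap when the libraries were combined, but in datasets 1 and 2, with 6 rearrangements each, the intervals of TRAV4-4-DV10 reached from 11.8 to 88.2%. Some single genes without a DV name had a median TRAJ number near or above that of TRAV4-4-DV10. These were TRAV3-3 (42), TRAV5-4 (42.5) and TRAV17 (48), while the middle of the medians was 30.5 over the 32 such genes with at least 8 rearrangements.

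TRAV6-7-DV9 used 18 TRAJ genes in 26 distinct rearrangements, with a median TRAJ number of 35.5. TRAJ37 and TRAJ40 were used by 3 each, TRAJ30, TRAJ34, TRAJ43 and TRAJ45 by 2 each, and 12 others once. A TRAJ number of 40 or more was found in 10 of 26 (38.5%, 20.2 to 59.4%), an interval that overlapped with that of the other TRAV genes. The most 5′ DV gene, TRAV15D-1-DV6D-1, had only 2 rearrangements, and these used TRAJ4 and TRAJ5 at the 3′ end of the cluster.

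**Figure D2:**
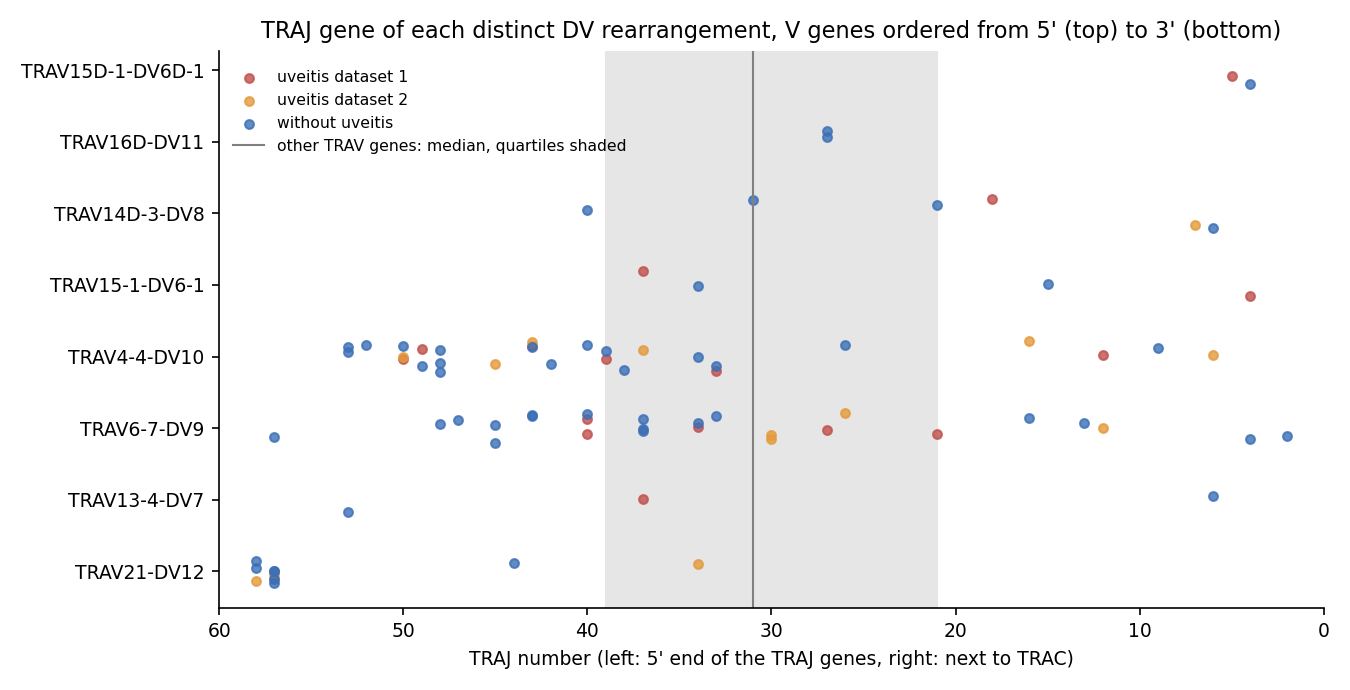
TRAJ number (x axis, reversed so that the 5′ end of the TRAJ cluster is on the left) of each of the 83 distinct DV rearrangements, coloured by library, with V genes in the order of the locus. The grey line and band give the median (31) and quartiles (21 to 39) of the other TRAV genes, and TRAV21-DV12 lies at the far left with a median of 57.

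TRAV4-4-DV10 clonotypes paired with 14 TRBV genes in 26 clonotypes, and TRAV6-7-DV9 clonotypes with 12 in 24. TRBV13-2 was the most frequent partner of TRAV4-4-DV10 with 5 clonotypes, followed by TRBV19 with 4, TRBV13-3 and TRBV20 with 3 each and TRBV1 with 2. TRAV6-7-DV9 paired with TRBV3 and TRBV5 in 4 clonotypes each, with TRBV2 and TRBV13-2 in 3 each, and with TRBV12-2 and TRBV13-3 in 2 each. All 4 of these TRBV3 pairings were found without uveitis, but only main TRA chains were counted. As a second TRA, TRAV6-7-DV9 also lay beside TRBV3 in a cell of dataset 1 (TRAJ34) and a cell of dataset 2 (TRAJ26). The 4 include the TRAV6-7-DV9/TRAJ47 chain described below, which was the main TRA in 1 of its 7 cells, with 2 UMIs for each TRA. Over all DV genes, TRBV13-2 was used by 11 of 69 clonotypes (15.9%, 8.24 to 26.7%) and by 78 of 622 with other TRAV genes (12.5%, 10.0 to 15.4%), a difference within the intervals.

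Among the 21 TRBV genes, the intervals of DV and other clonotypes overlapped for each one over the 3 libraries together. Among partners seen with a DV gene, TRBV12-2 had the widest ratio, with 4 of 69 DV clonotypes (5.80%, 1.60 to 14.2%) and 4 of 622 others (0.643%, 0.175 to 1.64%), and the DV clonotypes were 1, 0 and 3 in the 3 libraries. TRBV4 was the partner of 0 of 69 DV clonotypes, which allows up to 5.21%, and of 35 of 622 others (5.63%, 3.95 to 7.74%). TRBV12-2, TRBV4 and TRBV13-3, and TRBV5 in the next paragraph, were picked for comparison after their values were seen. TRBV13-3 was the partner of 7 of 69 DV clonotypes (10.1%, 4.18 to 19.8%) and of 25 of 622 others (4.02%, 2.62 to 5.88%). It was the higher with DV genes in 3 of 3 libraries, at 9.09%, 16.7% and 8.70% against 4.72%, 2.31% and 4.38%, with overlapping intervals in each.

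TRBV5 differed in dataset 2. There it was paired with 4 of 12 DV clonotypes (33.3%, 9.92 to 65.1%) and with 9 of 130 other clonotypes (6.92%, 3.21 to 12.7%). In dataset 1 the shares were 9.09% and 8.66%, and without uveitis 6.52% and 7.95%, so that DV and other genes were close to each other there. The intervals of dataset 2 overlapped, and 2 of the 4 DV clonotypes, with TRAV4-4-DV10 and with TRAV6-7-DV9, carried the same CDR3β, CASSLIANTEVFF.

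The CDR3α of DV clonotypes had a median length of 14, 13 and 14 residues in dataset 1, dataset 2 and without uveitis, against 13, 13 and 14 residues with the other TRAV genes. The difference averaged 0.333 ± 0.577 residues (SD, n = 3 libraries), with an exact two-sided sign-flip permutation test over the libraries giving p = 1. Within the DV genes the lengths differed more. Distinct TRAV4-4-DV10 rearrangements had a median of 13 residues (11 to 17), TRAV6-7-DV9 14 (11 to 16) and TRAV21-DV12 15 (12 to 16). The 4 of TRAV15-1-DV6-1 had 14 to 16 residues and the 2 of TRAV15D-1-DV6D-1 had 16, and all 6 began with CALW, which their longer germline end of 19 bases encodes.

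The number of bases between the V and J matches was a median of 3 in the 83 DV rearrangements (quartiles 1 to 5) and 3 in the 688 of the other TRAV genes (quartiles 1 to 4). Such bases are those added or altered at the joint, less any that happen to match the germline. In TRAV4-4-DV10 the median was 2 (0 to 9), in TRAV21-DV12 2 (0 to 8) and in TRAV6-7-DV9 5 (0 to 11). No such base was found in 12 of the 83 DV rearrangements, a similar share to the 90 of 688 of the other TRAV genes. The TRAV4-4-DV10/TRAJ50 chain without uveitis printed above was among the 12.

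**Figure D3:**
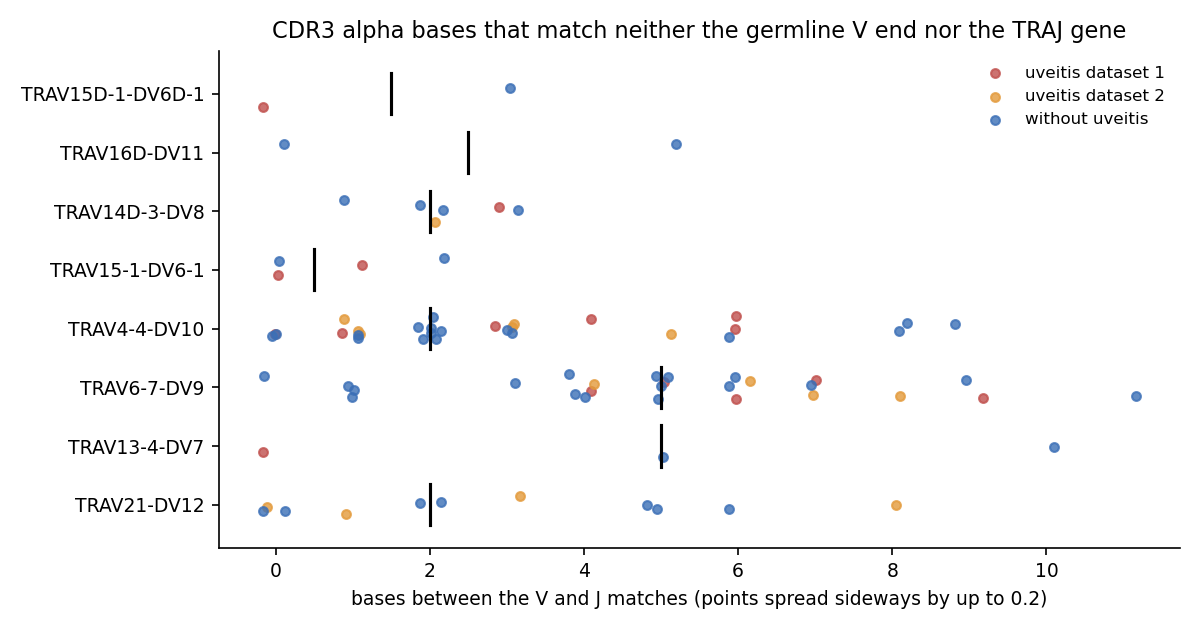
Number of CDR3α bases (x axis) that match neither the germline V end nor the TRAJ gene in each distinct DV rearrangement, by gene and coloured by library, with the median as a black bar. TRAV6-7-DV9 sits farthest right of the 3 most used genes, with a median of 5 against 2 for TRAV4-4-DV10 and TRAV21-DV12.

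The high value of TRAV6-7-DV9 came with 2 kinds of junction. Its germline end in GENCODE differs from that of the copy TRAV6D-7 at A10G, counted from 1 at the first base of the cysteine codon, with the base of TRAV6-7-DV9 first (capitals mark that base):
TRAV6-7-DV9 germline: tgtgctctgAgtga
TRAV6D-7 germline: tgtgctctgGgtga
TRAV6-7-DV9/TRAJ40, dataset 1: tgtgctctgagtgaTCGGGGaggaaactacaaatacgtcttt
TRAV6-7-DV9/TRAJ30, dataset 2: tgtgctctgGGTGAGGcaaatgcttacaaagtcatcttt
Of the 26 rearrangements named TRAV6-7-DV9, 7 matched its own germline over at least the first 12 bases and 9 matched that of TRAV6D-7 over at least 12, as in the last 2 lines. The remaining 10 kept fewer bases of either. Both kinds were found in every library, with 1 and 1 in dataset 1, 1 and 3 in dataset 2, and 5 and 5 without uveitis. Counted against the better of both ends, the median fell from 5 to 4 bases. No contig was named TRAV6D-7 in any library, whereas TRAV6-6 and TRAV6N-7, which have the same end as TRAV6D-7, were named in 34 contigs and 1 contig. Which V gene copy gave the 9 chains cannot be told from the CDR3, and the name TRAV6-7-DV9 is uncertain for them.

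TRAV4-4-DV10 shares its germline end with TRAV4N-4 and TRAV4D-4, and 3 of its CDR3α nucleotide sequences were found in the same library under another V name. In dataset 1, a TRAV4-4-DV10/TRAJ12 cell with TRBV1 and a cell with TRBV13-2 that held TRAV4N-4/TRAJ12 as its second TRA had the same CDR3α bases. So did a TRAV4-4-DV10/TRAJ33 cell and a TRAV4N-4/TRAJ33 cell of that library, both with TRBV19 but with different CDR3β. Without uveitis, a TRAV4-4-DV10/TRAJ42 cell with TRBV19 shared its CDR3α bases with 3 cells of a TRAV4D-3/TRAJ42 clonotype with TRBV29. Because the TRB chains differed in each case, these cells were not of the same clonotype.

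Expanded DV clonotypes were few. The share of DV cells that belonged to a clonotype of more than 1 cell was 0 of 11 in dataset 1, which allows up to 28.5%, 9 of 19 in dataset 2 (47.4%, 24.4 to 71.1%) and 3 of 48 without uveitis (6.25%, 1.31 to 17.2%). Among cells with other TRAV genes it was 51 of 165 (30.9%, 24.0 to 38.6%), 209 of 305 (68.5%, 63.0 to 73.7%) and 77 of 422 (18.2%, 14.7 to 22.3%). The DV share was lower in 3 of 3 libraries, with a mean difference of -21.4 ± 9.46 percentage points (SD, n = 3 libraries), although the intervals overlapped in each. TRAV4-4-DV10 alone did not have this lower share in every library. Its expanded share was 0 of 4 cells in dataset 1, 9 of 13 in dataset 2 (69.2%, 38.6 to 90.9%) and 3 of 18 without uveitis (16.7%, 3.58 to 41.4%), close to the other TRAV genes in dataset 2 and without uveitis. The value of all DV genes without uveitis also depended on the second chains, at 18.3% with every TRA of a cell counted and 0% in cells with 1 TRA and 1 TRB. The exact two-sided sign-flip permutation test gave p = 0.25, the smallest that 3 libraries allow, and 0.333 after adjustment over the 4 measures compared. Cells of 1 clonotype are not independent, so the intervals of these shares are too narrow.

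All 3 expanded DV clonotypes used TRAV4-4-DV10. The largest, in dataset 2, joined TRAV4-4-DV10 to TRAJ43 with the CDR3α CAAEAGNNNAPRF and paired with TRBV5, TRBJ1-1 and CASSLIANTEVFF in 6 cells, 1.85% of the library (0.683 to 3.99%). Its TRA had 2, 4, 6, 6, 8 and 10 UMIs in these cells. In another cell with the same TRB it was the second TRA with 2 UMIs, and in a barcode without a TRB it had 1 UMI. Of the 7 cells with TRB, 4 also held a TRAV3-3/TRAJ42 chain. A further cell with the same CDR3β had TRAV6-7-DV9 joined to TRAJ12, with 7 UMIs, and no second TRA. The same TRAV6-7-DV9/TRAJ12 chain was second, with 6 UMIs, in the cell of dataset 2 whose barcode was shared, next to TRBV5 with another CDR3β.

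The other 2 expanded DV clonotypes, 1 in dataset 2 and 1 without uveitis, encoded the same TCR in CDR3 amino acids with different bases. TRAV4-4-DV10 joined to TRAJ50 gave the CDR3α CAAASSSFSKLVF, with TRBV20, TRBJ1-4 and the CDR3β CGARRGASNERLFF, in 3 cells of dataset 2 (2, 6 and 29 UMIs) and in 3 cells without uveitis (3, 6 and 10 UMIs). These were 0.926% (0.191 to 2.68%) and 0.638% (0.132 to 1.85%) of cells. The CDR3 of each chain was the same in amino acids in both libraries and differed at 1 base in nucleotides, with G9T in the CDR3α and A21G in the CDR3β, counted from the first base of the cysteine codon with dataset 2 first. Without uveitis, another cell carried the chain as its second TRA with 6 UMIs, and all 4 cells also held TRAV14-1/TRAJ45, with 2, 4, 7 and 9 UMIs. None of the 3 cells of dataset 2 held a second TRA. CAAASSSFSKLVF was the only DV CDR3α amino acid sequence found in more than 1 library with the same V gene.

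TRAV6-7-DV9 had no expanded clonotype when each cell was given the TRA with the most UMIs, yet it was part of a repeated one. Without uveitis, the chain TRAV6-7-DV9/TRAJ47 with the CDR3α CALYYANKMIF was found in 7 cells, all with TRBV3 and the CDR3β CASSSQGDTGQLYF. Each of the 7 also held TRAV14N-1/TRAJ52. The DV chain had 2, 4, 5, 7, 10, 24 and 29 UMIs and the other TRA 2, 9, 9, 11, 15, 32 and 34, and the DV chain was second in 6 of the 7 cells. Its share of cells thus depended on which TRA stood for the cell.

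**Figure D4:**
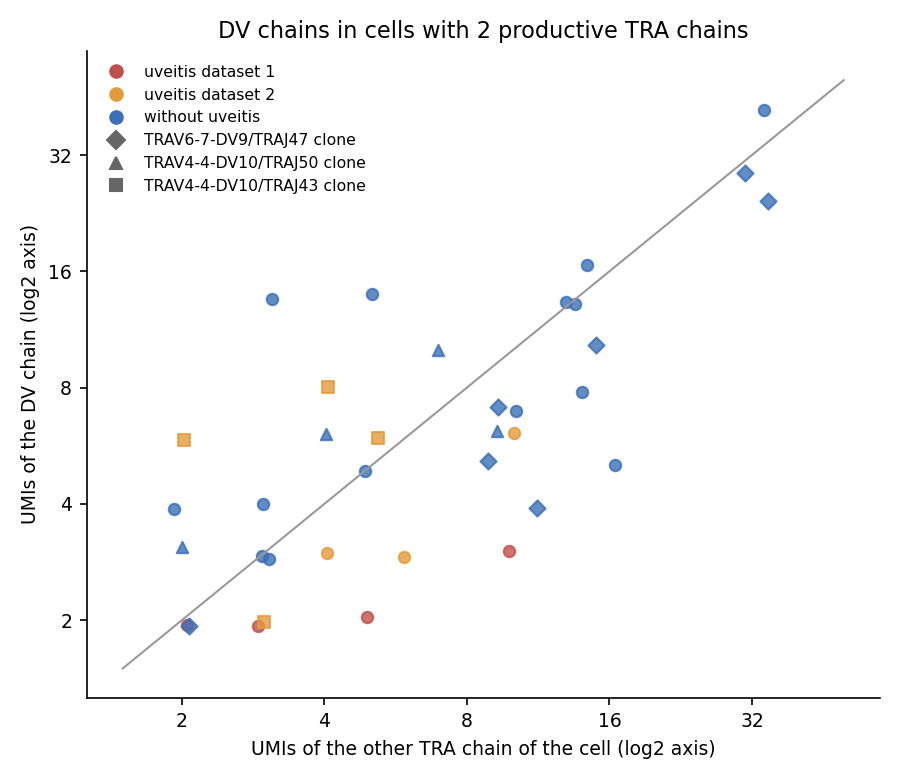
UMIs of the DV chain (y axis) against those of the other TRA (x axis) in cells with 2 productive TRA chains, both on log2 axes with points moved slightly so that they do not hide each other. The line marks equal UMIs, colours mark libraries and shapes the repeated chains, and 6 of 7 diamonds, the TRAV6-7-DV9/TRAJ47 chain, lie below the line while the other is on it.

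Some DV chains were the second TRA of a cell. Of the DV contigs in paired cells, 4 of 15 in dataset 1 (26.7%, 7.79 to 55.1%), 4 of 23 in dataset 2 (17.4%, 4.95 to 38.8%) and 13 of 61 without uveitis (21.3%, 11.9 to 33.7%) were not the main TRA. For the other TRAV genes the shares were 8.33% (4.74 to 13.4%), 7.01% (4.50 to 10.3%) and 13.3% (10.5 to 16.7%). The DV share was the higher of the pair in each library, with overlapping intervals in each. Of the 13 without uveitis, 6 were the repeated TRAV6-7-DV9/TRAJ47 chain. Of the DV second chains, 1 in dataset 1 and 3 without uveitis had as many UMIs as the main TRA and came second by reads. Second chains with fewer UMIs were 20% (4.33 to 48.1%), 17.4% and 16.4% (8.15 to 28.1%) of the DV contigs and 7.22%, 6.10% and 12.5% of the others, with overlapping intervals in each library. Counting each rearrangement once, and only those that were never the main TRA of a cell, the shares were 26.7%, 14.3% and 11.5% for DV genes and 8.66%, 4.72% and 13.5% for the others, so that the direction turned without uveitis.

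The TRAV15 copies were second in 4 of their 6 contigs, with 2 to 8 UMIs over all 6. In 1 cell without uveitis both TRA chains were DV chains, TRAV6-7-DV9/TRAJ45 and TRAV4-4-DV10/TRAJ43, with 13 UMIs each and a single TRBV3 chain. TRAV4-4-DV10 was second in 4 of 41 contigs, TRAV6-7-DV9 in 9 of 33 and TRAV21-DV12 in 1 of 11. Droplets with more than 1 cell were not removed, and their part in these counts was not tested.

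Where a DV chain was the main TRA of a cell, its median UMI count was above that of other TRA chains, with overlapping intervals. The median was 6 in dataset 1 (5 to 13, 11 cells), 6 in dataset 2 (2 to 10, 19 cells) and 13.5 without uveitis (7 to 16, 48 cells). The other TRAV genes had medians of 5 (4 to 5), 4 (4 to 5) and 7 (7 to 8). DV genes were higher in 3 of 3 libraries, by a mean of 3.17 ± 2.93 UMIs (SD, n = 3 libraries), with p = 0.25 in the exact two-sided sign-flip permutation test and 0.333 after adjustment. The mean difference was 1.5 UMIs in the uveitis datasets alone. With every TRA of a cell counted it was 2, and the same exact permutation test gave p = 0.5. The DV median was then no longer higher in 3 of 3 libraries, and was 5 in dataset 1. The TRB of the same cells was not higher, with medians of 11, 8 and 14.5 UMIs beside a DV chain and 12, 10 and 16 beside other TRAV genes.

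Within the library without uveitis, main TRA chains of TRAV6-7-DV9 had a median of 16 UMIs, TRAV21-DV12 18 and TRAV4-4-DV10 8.5. In dataset 1 the median of TRAV4-4-DV10 was 9 and that of TRAV6-7-DV9 5, with 4 cells each. In dataset 2 the medians were 6 for TRAV4-4-DV10 (13 cells), 10 for TRAV6-7-DV9 (3 cells) and 2 for TRAV21-DV12 (3 cells). The order of the genes was thus not the same in all libraries. Of the 102 DV contigs, 2 rested on 1 UMI, both in dataset 2, where they were 8% of DV contigs. Contigs of the other TRAV genes with 1 UMI were 8.99% in dataset 1, 7.53% in dataset 2 and 3.8% without uveitis.

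TRAJ numbers of DV clonotypes were also higher in 3 of 3 libraries, with medians of 37, 35.5 and 40 against 30, 31 and 31. The mean difference was 6.83 ± 2.25 (SD, n = 3 libraries), again with p = 0.25 in the exact two-sided sign-flip permutation test and 0.333 after adjustment. The intervals were apart without uveitis (34 to 48 and 27 to 32) and overlapped in dataset 1 (18 to 40 and 23 to 31) and dataset 2 (16 to 50 and 26 to 31). With every TRA of a cell counted, the mean difference was 4, and the same exact permutation test gave p = 0.5.

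**Figure D5:**
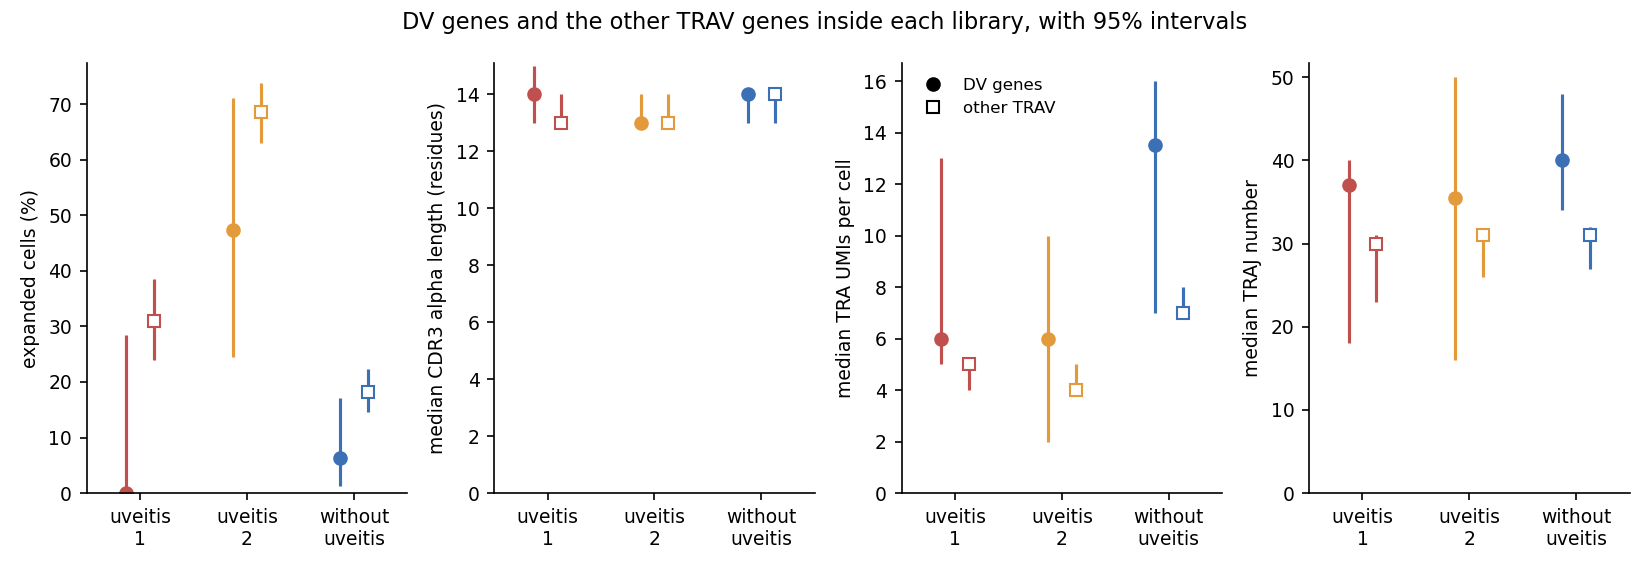
Share of expanded cells (%), median CDR3α length (residues), median TRA UMIs per cell and median TRAJ number for DV genes (circles) and other TRAV genes (squares) inside each library, with 95% intervals as lines. The share of expanded DV cells is the lower of the pair in each library, while UMIs and TRAJ numbers are the higher.

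All 24, 28 and 73 TRA contigs with a DV gene, productive or not, carried TRAC, which largely follows from their label as TRA. Of the 49, 4 and 108 contigs labelled Multi, which combine segments of different chains, 0 had a DV gene. No productive TRD or TRG contig was found, and 1 TRD and 5 TRG contigs without a productive chain were listed in dataset 1 only. Tetramer-binding cells were gated as TCRβ+CD4+ and TCRα and TCRβ transcripts were amplified, so these libraries do not measure DV use in γδ T cells.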

How the data were processed

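Productive TRA contigs with a -DV gene were taken from the TCR libraries of P2+CD4+ T cells. The authors assembled contigs with Cell Ranger (version 3) and its mouse VDJ reference, and the deposited values are counts of reads and UMIs per contig, which are not normalized. A cell needed a productive TRA and TRB, and the contig of each with the most UMIs, then reads, was used. Gene positions came from GENCODE M21 (GRCm38), matched on gene names, which held all 85 TRAV genes seen. CDR3 bases were matched to its germline V and J sequences. On simulated contigs and junctions, 15 of 15 checks passed, and 893 of 1000 junctions came within 1 base of the simulated number. Each simulated junction was matched to its true V end, so the check does not cover chains whose V name is uncertain. DV and other TRAV genes were compared inside each library by an exact sign-flip permutation test over 3 libraries. The members, lists and named genes were chosen with earlier results of these data known. All DV genes were named, TRAJ and TRBV partners where at least 2 clonotypes or rearrangements used them, and clonotypes of more than 1 cell, in several libraries or with a DV chain as second TRA. The mRNA libraries were not used here. Intervals and tests used scipy 1.17.1, tables pandas 2.3.3 with numpy 2.4.6 under Python 3.11.15, and plots matplotlib 3.10.9.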

Additional observations from a re-analysis of the deposited data

Results flagged for a closer look

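Contigs outside the productive TRA chains also held these genes. DV contigs of the TRA chain that were not listed as productive numbered 8 of 24 in dataset 1 (33.3%, 15.6 to 55.3%), 3 of 28 in dataset 2 (10.7%, 2.27 to 28.2%) and 12 of 73 without uveitis (16.4%, 8.79 to 27.0%). The shares for other TRAV genes were 19.2%, 7.52% and 14.2%, within these intervals. TRAV6-7-DV9 gave 4, 3 and 6 of them, and TRAV15-2-DV6-2, which had no productive contig, gave 1 in dataset 1 and 1 without uveitis. The counts without uveitis and in dataset 1 were above the 3 counts taken as the limit of a count of 0.

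Without uveitis, 8 contigs labelled Multi carried a TRDV gene, a V gene named for the TCRδ chain only, with TRAC as the constant gene. They were 6 with TRDV1, 1 with TRDV2-1 and 1 with TRDV2-2, in 8 cells, and 7 were joined to a TRAJ gene. Of the 8, 6 were listed as productive, with up to 48 UMIs. Dataset 2 held 1 such contig with 1 UMI and dataset 1 held 0. These contigs are not TRA contigs in the files and entered none of the counts above.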

How the results depend on the processing

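Of 296 alternative values, 274 lay within the interval or SD of the value reported, 22 moved and 0 took the opposite sign. Part of the 274 could not have moved, so this count does not measure how robust the results are. Leaving out either uveitis dataset always gives a mean within their SD. Redefining clonotypes cannot change the share of cells that use a gene or the UMI medians of cells, and contigs labelled Multi held no DV gene. Merging near-identical copies with the DV genes raised the share of cells to 14.2%, 9.26% and 16.4% in the 3 libraries (uveitis mean 11.7%) and that of clonotypes to 15.5% in dataset 2 and 18.005% without uveitis (uveitis mean 14.6%). The expanded share of DV cells without uveitis was 18.3% with every TRA counted and 0% in cells with 1 TRA and 1 TRB, since both chains of the repeated clones were then counted or left out. The other values that moved were uveitis means. With every barcode with a TRA, the DV shares of cells and clonotypes were 6.41% and 8.78% and the TRAJ median 38.5. With every TRA counted, they were 7.81%, 9.71% and 32, the UMI median 5.5 and the TRAV6-7-DV9 share of clonotypes 3.24%. Cells with 1 TRA and 1 TRB gave 6.38%, 9.38% and 5.5 UMIs, and contigs with at least 2 UMIs 6.53% and 8.74%. Leaving out each library in turn, an alternative chosen after seeing the data, kept the sign of the mean differences in expansion (-26.0 to -16.6 points), UMIs (1.5 to 4.25) and TRAJ number (5.75 to 8), but that in CDR3α length was 0 without dataset 1. Multi contigs added no DV chain. No paired analysis was possible because the group without uveitis had 1 library. With 11 to 48 DV cells a library, the intervals of the expanded share of DV cells overlapped with those of other TRAV genes in each library.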
